A study of Mus musculus with 47 samples.

Results

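The genes described here are 32 genes of adult skeletal muscle, out of 56748 genes in the count table, and they were measured in pieces of mouse melanoma and in the cultured cells from which such tumors were grown. They were chosen by symbol from a list of muscle genes, without regard to their values, and each was found in the table. By role they fall into 7 genes of the thick filament, 5 of the thin filament, 8 of the Z-disc and elastic filament, 6 of excitation and calcium handling, and 6 of energy supply.

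The study edited the mitochondrial gene Mt-Nd5 in B78-D14 cells, an amelanotic, Cdkn2a-/- derivative of the B16 mouse melanoma line, with a mitochondrial base editor (DdCBE), and then grew the cells as tumors under the skin of immunocompetent mice. Tumor fragments were sequenced in bulk from 3 groups, namely 4 control tumors, 7 m.12,436 40% tumors and 7 m.12,436 60% tumors, where the percentage is the labelled share of mtDNA copies with the G>A change at position 12436. The hosts were adult male C57BL/6 mice, which carry no edit, the cells were injected in Matrigel, and untreated tumors were taken at a size endpoint. Cultures of the same line, 4 of control cells and 4 of m.11,944 60% cells (the same gene edited at position 11944), served as a background without host tissue. The edited lines are isogenic populations, the gene counts do not show the edited base, and a fragment can hold any tissue that lay against the tumor. In the tumors, between 16475735 and 31218475 reads were assigned to genes per library, and in the 8 cultures between 25249060 and 36173502. P-values measure the spread between these tumors, and tumor numbers only name tumors.

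Skeletal muscle contracts by sliding thick filaments of myosin along thin filaments of actin within sarcomeres, which Z-discs bound and the giant protein titin spans. A nerve impulse opens calcium stores in the sarcoplasmic reticulum, calcium binds troponin on the thin filament, and creatine kinase and glycogen breakdown supply ATP. Fast fibers are told apart by their myosin heavy chain (Myh2 in type IIA, Myh1 in type IIX and Myh4 in type IIB fibers), and slow fibers use Myh7. In the mouse a thin sheet of striated muscle, the panniculus carnosus, lies beneath the skin, and the muscles of the body wall lie deeper. In bulk tissue, fewer cells of a type and less RNA per cell cannot be told apart.

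The 3 fast myosin genes lie side by side on chromosome 11 and, together with skeletal alpha-actin (Acta1), are the genes whose levels the following paragraphs turn on, so the 250 bases before their RefSeq start (build GRCm38.p6) are shown 5′ to 3′. The windows are chr11:67199852-67200101 on the plus strand for Myh1, chr11:67170777-67171026 plus for Myh2, chr11:67237562-67237811 plus for Myh4 and chr8:123894776-123895025 minus for Acta1. Capitals mark any of 4 searched motifs on either strand, namely the E-box CAGCTG, the TATA box TATAAA, the MEF2 motif and the CArG box.
Myh1: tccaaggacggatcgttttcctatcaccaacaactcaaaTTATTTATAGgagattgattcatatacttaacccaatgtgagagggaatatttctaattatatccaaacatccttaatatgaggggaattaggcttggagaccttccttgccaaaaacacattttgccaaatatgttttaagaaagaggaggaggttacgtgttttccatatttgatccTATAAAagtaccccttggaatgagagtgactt
Myh2: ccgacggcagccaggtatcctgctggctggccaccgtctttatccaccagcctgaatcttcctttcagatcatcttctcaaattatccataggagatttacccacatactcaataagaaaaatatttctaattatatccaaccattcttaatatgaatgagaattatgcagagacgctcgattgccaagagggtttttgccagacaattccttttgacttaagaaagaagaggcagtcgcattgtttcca
Myh4: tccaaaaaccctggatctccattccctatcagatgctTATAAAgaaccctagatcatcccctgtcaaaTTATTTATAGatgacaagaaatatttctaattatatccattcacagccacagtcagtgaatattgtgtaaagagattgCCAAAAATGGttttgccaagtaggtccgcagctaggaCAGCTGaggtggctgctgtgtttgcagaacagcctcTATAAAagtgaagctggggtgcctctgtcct
Acta1: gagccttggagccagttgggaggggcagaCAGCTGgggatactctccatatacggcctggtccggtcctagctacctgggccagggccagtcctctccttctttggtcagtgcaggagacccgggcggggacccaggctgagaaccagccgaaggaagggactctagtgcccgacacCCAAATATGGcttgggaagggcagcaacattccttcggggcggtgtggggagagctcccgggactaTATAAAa

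Of these windows, that of Myh4 held 3 TATAAA, 1 E-box, 1 MEF2 motif and 1 CArG box, and that of Myh1 held 2 TATAAA and 1 MEF2 motif. The TATAAA nearest the start began 32 bases before it in Myh1 and 31 in Myh4. In both genes the MEF2 motif overlapped the TATAAA that began 208 (Myh1) or 179 (Myh4) bases before the start. Acta1 held 1 E-box, 1 TATAAA and 1 CArG box, and no searched motif stood in the Myh2 window. A TATAAA of Myh2 began at base 11 counted from the start, outside the bases shown but inside the longer windows counted below. The longest run of bases shared by 2 of the 3 myosin windows was 21 for Myh2 with each of the other two and 20 for Myh1 with Myh4. RefSeq windows of 250 bases before to 50 after the start were found for 23 of the 32 genes, in 27 windows. An E-box stood in 14 of these 27 (51.9%), against 16.3% of all 32851 windows, a MEF2 motif in 5 (18.5%) against 3.19%, a CArG box in 4 (14.8%) against 1.63%, and TATAAA in 5 (18.5%) against 13.6%. Windows of 1 gene can overlap and hold the same site, as the CArG box of Ldb3 and the E-box of Mb. Counted by gene, an E-box stood in 13 and a CArG box in 3. A match is a description of letters, not a site.

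The 18 tumors fell apart into those with muscle RNA and those with next to none. Xirp2, an actin-binding protein of the Z-disc and muscle attachment sites, had 0 counts in 6 tumors (control tumors 3 and 4 and 60% tumors 1, 2, 5 and 6) and between 60 and 1418 counts in the other 12. Those 12 were 2 of 4 control tumors, 7 of 7 m.12,436 40% tumors and 3 of 7 m.12,436 60% tumors. For 27 of the 32 genes the 6 lowest tumors were these same 6, an order that 63 of 16213 genes tested (0.389%) had. Xirp2 was picked to name the 12 after its values were seen, and this split of the tumors follows measured levels, not labels, so it is described without a test.

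**Figure D1:**
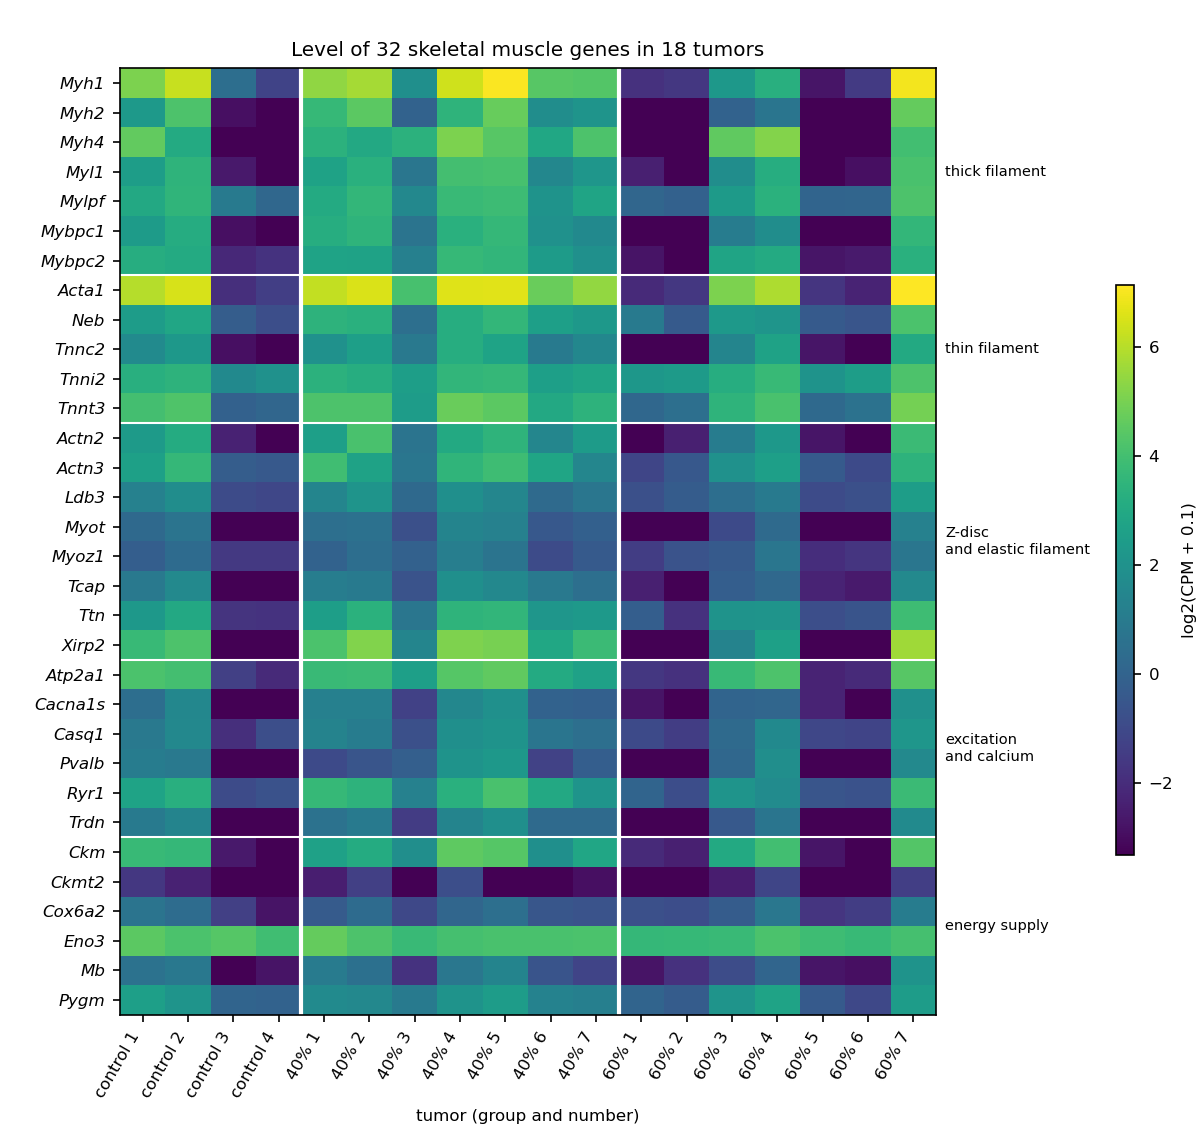
Level of each of the 32 genes (rows, by role) in each of the 18 tumors (columns, by group), as log2 of CPM (counts per 1000000 counts of the library, TMM-normalized) plus 0.1. Control tumors 3 and 4 and 60% tumors 1, 2, 5 and 6 are dark in nearly every row, while Eno3 is bright in all 18 and Ckmt2 is dark throughout.

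Summed over the 32 genes, muscle counts made up 0.0303%, 0.0419%, 0.00320% and 0.00254% of all counts in control tumors 1 to 4. In the m.12,436 40% tumors the share ran from 0.00904% to 0.0600% with a median of 0.0328%. In the m.12,436 60% tumors it ran from 0.00249% to 0.0629% with a median of 0.00269%. The group means were 0.0195% ± 0.0198 (SD, n = 4), 0.0328% ± 0.0187 (SD, n = 7) and 0.0169% ± 0.0226 (SD, n = 7), so the SD was as large as the mean or larger in the control and 60% groups, and the ranges of the 3 groups overlapped. Without 60% tumor 7 the mean of the 60% tumors was 0.00921%, and without control tumor 2 that of the control tumors was 0.0120%. Counting error was small beside this spread, since the exact binomial 95% interval of the lowest tumor, 60% tumor 6, was 0.00231% to 0.00267% and that of the highest, 60% tumor 7, was 0.0620% to 0.0639%. Such intervals cover counting error only.

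Part of this sum came from genes that the melanoma cells themselves had counts for. The cultures carried 0.00371% to 0.00576% of their counts on the 32 genes, more than the 0.00249% to 0.00320% of the 6 tumors without Xirp2. In culture these counts lay mostly on Eno3 (441 to 1293 counts), Cox6a2 (1 to 788), Ldb3 (30 to 240), Mylpf (11 to 57), Actn3 (14 to 36) and Pygm (2 to 14). The remaining 26 genes had at most 10 counts in any culture, and 10 of the 32 had none. On these 26 genes the share was 3.53e-05% to 0.000113% in the 8 cultures, 0.000751% to 0.00109% in the 6 tumors without Xirp2, and 0.00698% to 0.0571% in the other 12. The 6 tumors therefore carried 158 to 289 counts on genes with 10 to 30 counts in a whole culture, of which Tnni2 alone gave 78 to 163.

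**Figure D2:**
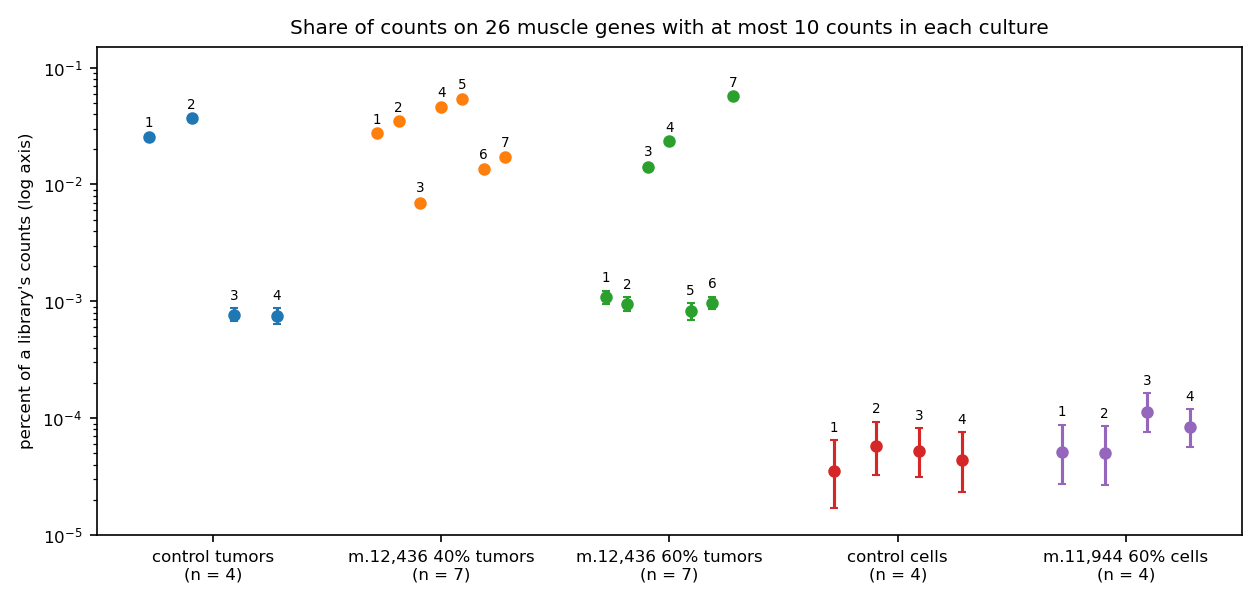
Percent of a library's counts (log axis) on the 26 muscle genes with at most 10 counts in each culture, by group, with exact binomial 95% intervals and the replicate number beside each point. The tumors form an upper set of 12 between 0.00698% and 0.0571% and a lower set of 6 between 0.000751% and 0.00109%, and the 8 cultures lie below both.

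Among thin filament genes, Acta1 (chr8:124618501-124623661, minus strand, GRCm39), the actin of the skeletal sarcomere, stood at 62.1, 90.5, 0.164 and 0.280 CPM in control tumors 1 to 4. In the 40% tumors it ran from 16.8 to 101 CPM with a median of 71.9. In 60% tumors 3, 4 and 7 it was 33.2, 57.8 and 140 CPM, and in the other four it lay between 0.103 and 0.226. No tumor lay between 0.280 and 16.8 CPM. Tnnt3, the tropomyosin-binding troponin subunit of fast fibers (chr7:142048605-142070280, plus), stood at 16.2, 19.0, 0.855 and 0.979 CPM in the control tumors, at 5.33 to 26.4 (median 18.4) in the 40% tumors and at 1.03 to 30.8 (median 1.44) in the 60% tumors. Control tumors 1 and 2 were thus inside the range of the 40% tumors, and the lowest tumors still had 21 counts of it.

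Tnni2, the inhibitory subunit of fast troponin, behaved otherwise from Tnnc2, its calcium-binding partner. Tnni2 had 78 to 163 counts in the 6 tumors without Xirp2, that is 3.06 to 5.61 CPM, and at most 1 count in any culture. Tnnc2 had at most 1 count in those 6 tumors and 46 to 229 in the other 12. Nebulin (Neb), the ruler of thin filament length, had 10 to 41 counts in the 6 tumors, and its lowest value among the 12 was 1.29 CPM in 40% tumor 3, below the 1.83 CPM of 60% tumor 1.

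Among thick filament genes, Myh1 (chr11:67089132-67116631, plus) was at 33.9, 75.3, 1.28 and 0.326 CPM in control tumors 1 to 4, at 3.62 to 136 (median 41.8) in the 40% tumors, and at 4.61, 9.70 and 122 in 60% tumors 3, 4 and 7, with 0.0524 to 0.241 in the other four. Myh2 (chr11:67061838-67088989, plus) was at 4.94, 18.6, 0.0329 and 0 CPM in the control tumors, at 0.876 to 25.7 (median 10.95) in the 40% tumors, and at 0.890, 1.59 and 25.2 in 60% tumors 3, 4 and 7, with 0 in the other four. Myh4 (chr11:67128336-67151274, plus) was at 24.8, 8.22, 0 and 0 CPM in the control tumors, at 7.37 to 33.5 (median 10.53) in the 40% tumors, and at 23.6, 36.0 and 15.5 in 60% tumors 3, 4 and 7, with 0 in the other four. The 3 myosins did not keep the same order of tumors, since 60% tumors 3 and 4 stood below 60% tumor 7 for Myh1 and above it for Myh4. Control tumor 3 had 39 counts of Myh1 beside 5 of Acta1 and none of Myh4.

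Within the 12 tumors the makeup of fast myosin varied widely. Per kilobase of exon, Myh1 made up 12.4% to 72.2% of the counts on the 3 genes (median 59.9%), Myh2 2.47% to 27.0% (median 9.40%) and Myh4 10.47% to 85.1% (median 30.4%). Myh1 was the largest in 8 tumors and Myh4 in 4, which were 60% tumors 3 (85.1%) and 4 (81.0%) and 40% tumors 3 (75.6%) and 7 (50.5%). In 40% tumor 7 this order depended on dividing by exon length, since it had 590 raw counts of Myh1 and 543 of Myh4. As a share of raw counts on the 3 genes, Myh4 took 81.1% in 60% tumor 3 (exact 95% interval 78.03% to 83.9%) and 8.05% in control tumor 2 (7.11% to 9.07%), so these tumors differed beyond counting error. Each tumor group with more than 2 such tumors held both kinds, and no test between groups was made on them. Slow myosin was nearly absent, with 13 counts of Myh7 over all 18 tumors. The myosin genes are near-identical copies in places, and how reads shared by them were split is uncertain.

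**Figure D3:**
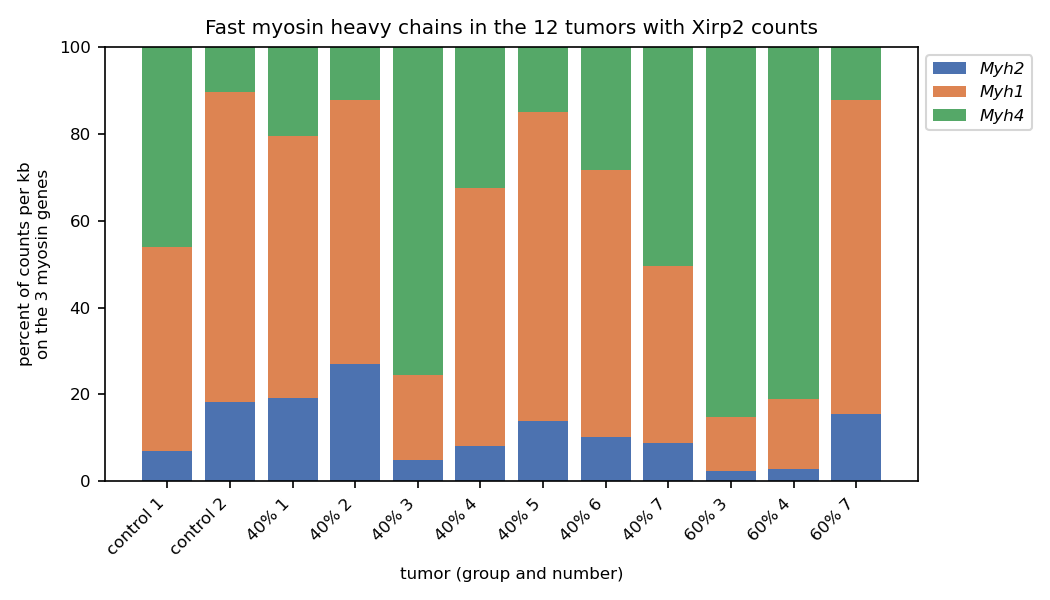
Percent of counts per kilobase of exon on Myh2, Myh1 and Myh4 (stacked bars summing to 100) in each of the 12 tumors with Xirp2 counts. Myh4 is the largest part in 60% tumors 3 and 4 and in 40% tumors 3 and 7, and Myh1 in the other 8.

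Among Z-disc genes, Xirp2 (chr2:67004178-67356962, plus) stood at 13.1, 18.6, 0 and 0 CPM in control tumors 1 to 4, at 2.63 to 35.9 (median 17.99) in the 40% tumors and at 2.43, 6.01 and 49.5 in 60% tumors 3, 4 and 7. Actn3, the alpha-actinin of fast fibers (chr19:4911215-4928529, minus), stood at 6.06, 12.4, 0.757 and 0.653 CPM in the control tumors, at 1.60 to 15.1 (median 6.91) in the 40% tumors and at 0.358 to 10.8 (median 0.681) in the 60% tumors. The other Z-disc genes, which include titin (Ttn), its cap protein Tcap, myotilin (Myot) and Actn2, summed with these to 1.42 to 2.14 CPM in the 6 tumors and to 9.93 to 101 CPM in the 12, here and in other sums over a list as CPM of raw library totals, without TMM.

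Among genes of excitation and calcium handling, Atp2a1, the calcium pump of fast sarcoplasmic reticulum (chr7:126045013-126063423, minus), stood at 17.96, 16.1, 0.296 and 0.140 CPM in the control tumors, at 5.86 to 23.8 (median 13.6) in the 40% tumors and at 0.105 to 21.0 (median 0.224) in the 60% tumors. Ryr1, its calcium release channel (chr7:28702769-28824604, minus), stood at 6.55, 9.59, 0.428 and 0.513 CPM in the control tumors, at 2.32 to 17.2 (median 9.83) in the 40% tumors and at 0.452 to 13.7 (median 0.939) in the 60% tumors. Both thus had the same tumors high and low as Acta1. Parvalbumin (Pvalb), a calcium buffer of the fastest fibers, and triadin (Trdn), which holds the release complex together, had 0 counts in all 6 tumors without Xirp2.

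Among genes of energy supply, muscle creatine kinase (Ckm, chr7:19138701-19157965, plus) stood at 12.9, 12.4, 0.0658 and 0 CPM in the control tumors, at 3.54 to 23.0 (median 7.15) in the 40% tumors and at 0 to 19.9 (median 0.134) in the 60% tumors. Eno3, the muscle enolase of glycolysis (chr11:70546593-70553340, plus), did not separate the tumors. It stood at 22.2, 17.8, 20.7 and 15.3 CPM in the control tumors, at 13.6 to 25.2 (median 17.5) in the 40% tumors and at 12.5 to 17.9 (median 13.7) in the 60% tumors. Ckmt2, the mitochondrial creatine kinase of striated muscle (chr13:92001503-92025608, minus), had the lowest mean of the 32 genes. It stood at 0.224, 0.0999, 0 and 0 CPM in the control tumors, at 0 to 0.474 (median 0.0340) in the 40% tumors and at 0 to 0.349 (median 0) in the 60% tumors, never with more than 9 counts.

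Between the tumor groups none of the muscle genes passed the test. Of the 32 genes, 31 passed the filter on low counts, and Ckmt2 did not. In edgeR's quasi-likelihood test over all 16213 genes, at an adjusted p under 0.1, 0 of 31 were called in the 60% against control tumors, where 2.31% of all genes were called, and 0 in the 60% against 40% tumors, where 1.81% were called. In the 40% against control tumors 0 of 31 were called and 0% of all genes. At an unadjusted p under 0.05 there were 1, 1 and 0 muscle genes against 2646, 2285 and 825 of all genes, in the same order. The gene was Eno3 in both. With limma-voom 0 were called in each comparison, though 1, 21 and 9 of the 31 had an unadjusted p under 0.05, in the same order. With DESeq2 1 of 31, Eno3, was called in the 60% against control tumors, where DESeq2 called 1056 of all genes, and none in the others.

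The fold changes were imprecise for nearly all muscle genes. In the 60% against control tumors the median log2 fold change of the 31 genes was -0.06, with 12 genes above 0 and 19 below, beside a median of -0.0025 over all genes. In the 40% against control tumors it was 0.75, with 30 genes above 0, beside 0.0043 over all genes. In the 60% against 40% tumors it was -0.86, with 30 genes below 0, beside -0.0036. The size of these medians depended on the method, limma-voom giving -0.34, 2.32 and -2.65 in the same order. The last 2 comparisons share the 40% tumors, and the first 2 share the control tumors. Since the genes moved together from tumor to tumor, their common sign is close to that of a single value, and edgeR's median standard errors of 1.12, 1.10 and 0.92 on the log2 scale were larger than its own medians.

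Acta1 had a log2 fold change of -0.20 ± 1.40 (SE) in the 60% against control tumors, 0.74 ± 1.44 in the 40% against control tumors and -0.94 ± 1.21 in the 60% against 40% tumors. In the same order Myh1 had -0.48 ± 1.45, 0.87 ± 1.49 and -1.36 ± 1.26. Myh2 had -0.55 ± 1.45, 0.94 ± 1.49 and -1.495 ± 1.27. For all 3 genes the smallest adjusted p from edgeR's test was 0.638, for Myh2 in the 60% against 40% tumors. Myh4 had 0.40 ± 1.40, 0.92 ± 1.42 and -0.53 ± 1.17, and Xirp2 had 0.08 ± 1.45, 1.37 ± 1.503 and -1.28 ± 1.23. In edgeR's fit none of these passed the test. The remaining genes given above in full spread likewise, Tnnt3 at -0.0052, 0.75 and -0.75, Actn3 at -0.61, 0.74 and -1.35, Atp2a1 at -0.16, 0.60 and -0.77, Ryr1 at -0.33, 1.11 and -1.43, and Ckm at -0.013, 0.70 and -0.71.

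Eno3 was measured far more precisely, with a log2 fold change of -0.40 ± 0.14 in the 60% against control tumors (edgeR adjusted p = 0.161), -0.07 ± 0.14 in the 40% against control tumors (adjusted p = 0.977) and -0.32 ± 0.12 in the 60% against 40% tumors (adjusted p = 0.213). The groups overlapped, the control tumors lying between 15.3 and 22.2 CPM and the 60% tumors between 12.5 and 17.9. Eno3 had 441 to 1293 counts in each culture, the most of the 32 genes in all but control cultures 1 and 2, where Cox6a2 had more.

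**Figure D4:**
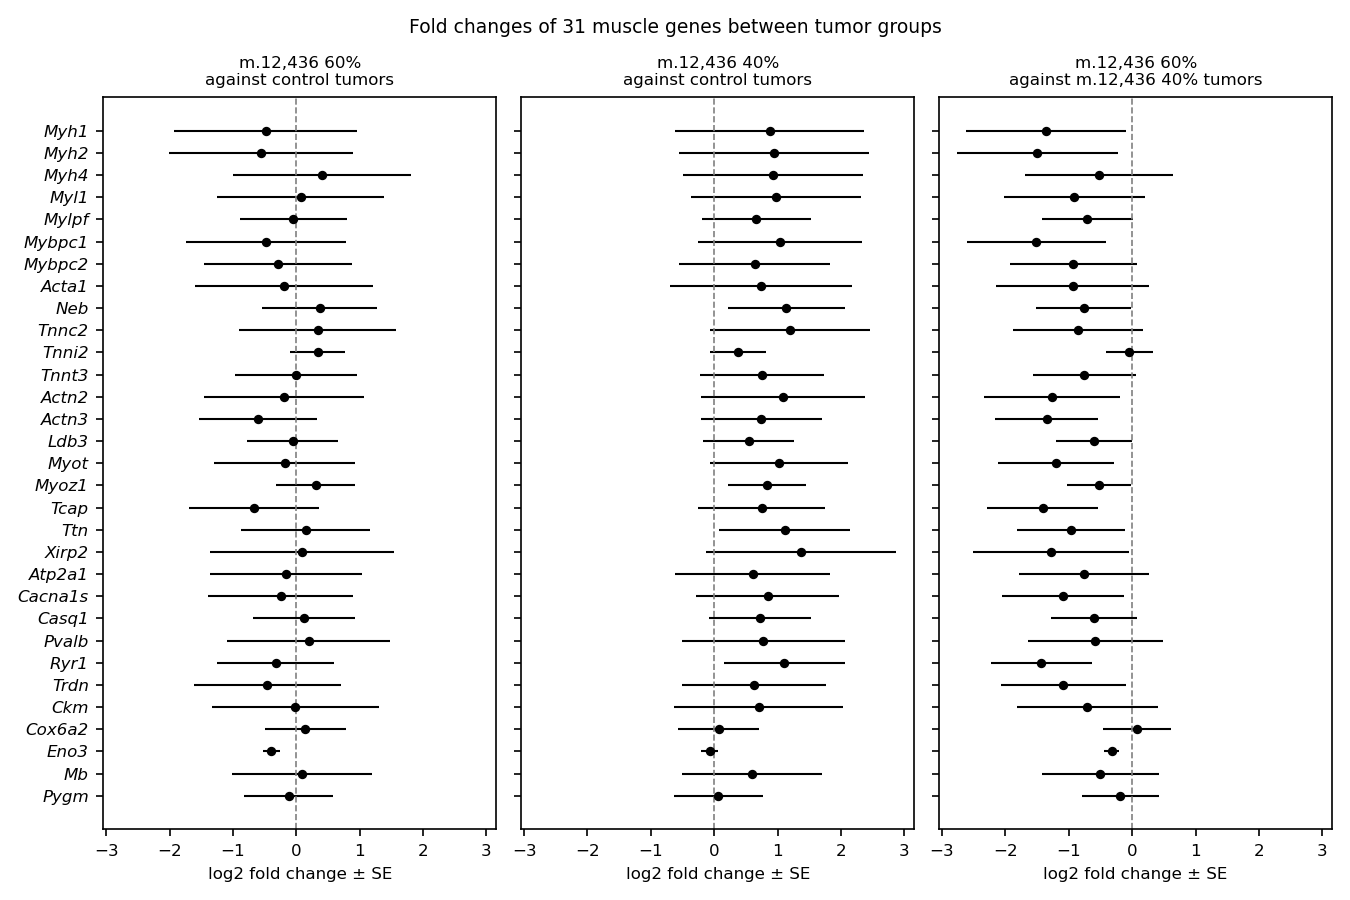
Log2 fold change (points) with its standard error (lines) of the 31 muscle genes tested, in the 3 comparisons between tumor groups. Except for Eno3, with -0.40 ± 0.14 in the left panel, the lines are long, and none of the 31 was called in any panel.

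The spread between tumors of 1 group was itself the clearest property of these genes. Their biological coefficient of variation, the fitted relative SD between tumors of a group, had a median of 1.29 and ran from 0.159 (Eno3) to 2.02 (Xirp2), against a median of 0.130 over all genes. Xirp2 had the highest value of all 16213 genes tested, Myh4 and Myh2 came close behind, and 27 of the 31 genes stood among the top 1% of genes. The other four were Eno3, Tnni2, Myoz1 and Cox6a2.

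The levels of the muscle genes varied together from tumor to tumor, and did so also among the 12 tumors with Xirp2 counts. Over those 12 the Spearman correlation of log2 CPM had a median of 0.78 over the 465 pairs of the 31 genes, and 371 pairs lay above 0.5. Over all 18 tumors the median was 0.90, a value that holds the gap between the 12 and the 6. The 12 points share normalization and depth, and no test was made. Most alike of the 465 pairs were Neb with Ryr1 and Myl1 with Mylpf, a pair of light chains (0.99 each), ahead of Acta1 with Mylpf and Myl1 with Tnnt3 (0.98 each).

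A few genes stood out of this common order. Of the 465 pairs, 15 were below 0, and each held Myh4 or Eno3. Over the 12 tumors Myh4 had rho = -0.04 with Myh1, -0.17 with Myh2 and -0.16 with Xirp2, but 0.73 with Pvalb, 0.62 with Ckm and 0.48 with Atp2a1. Myh1 and Myh2 had 0.94 with each other. The median rho of a gene with the others was 0.89 for Acta1, 0.88 for Myh1, 0.14 for Myh4, 0.51 for Pygm, the glycogen phosphorylase of muscle, 0.56 for Pvalb and 0.09 for Eno3. The range among the 12 also differed by gene, the highest tumor being 37.6-fold above the lowest for Myh1, 29.3-fold for Myh2, 8.33-fold for Acta1, 4.89-fold for Myh4 and 3.28-fold for Tnni2.

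**Figure D5:**
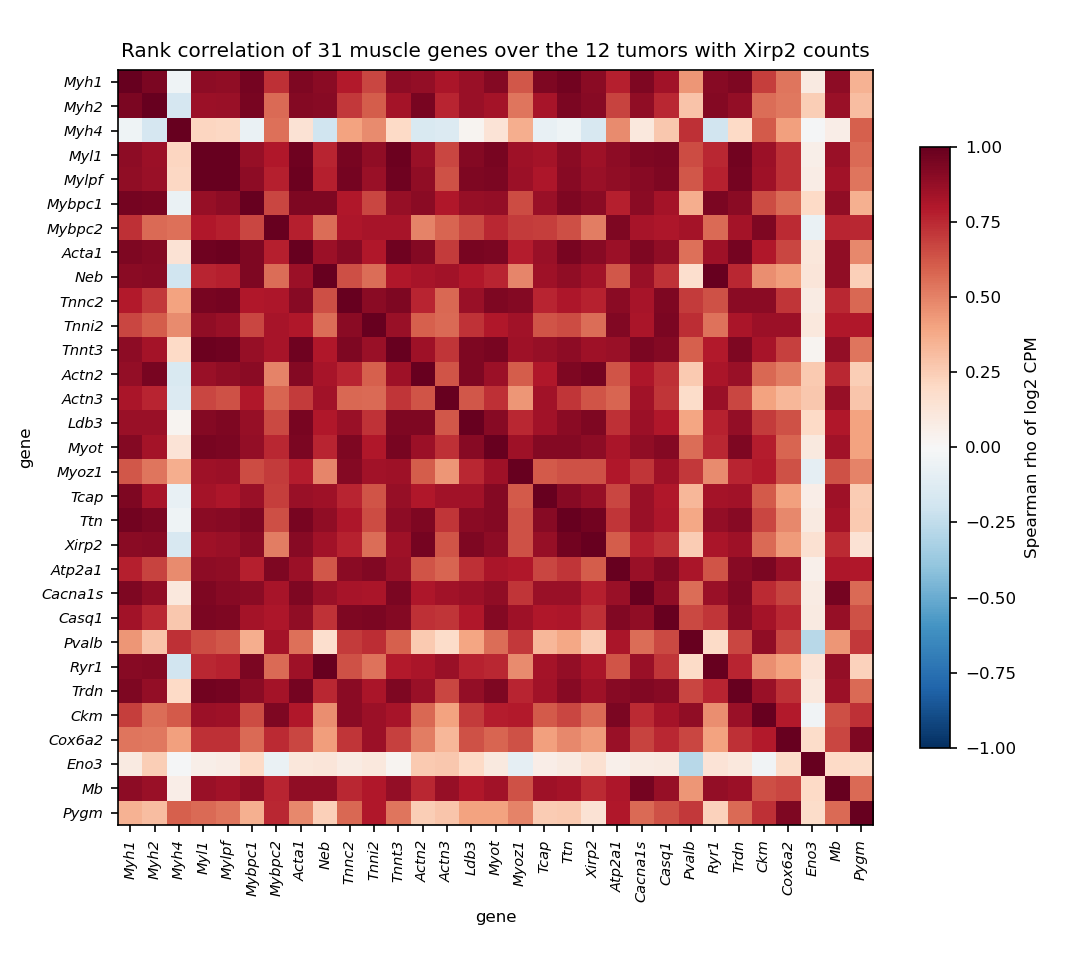
Spearman rho of log2 CPM between each pair of the 31 muscle genes over the 12 tumors with Xirp2 counts (color, red above 0 and blue below). Most of the square is dark red, and the rows of Myh4 and Eno3 are pale, with the 15 pairs below 0.

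The other genes most like the muscle genes were themselves mostly known in striated muscle. Ranked over 16182 other genes by Pearson r of log2 CPM with the mean of the 31 over the 18 tumors, the first 10 were Eef1a2 (the translation elongation factor of muscle and nerve, r = 1.00), Trim72 (membrane repair, 0.98), Myom2 (the M-band, 0.98), Hspb7 (a small heat shock protein, 0.98), Mypn (myopalladin of the Z-disc, 0.98), Lmod2 (an actin nucleator, 0.97), Pdlim3 (0.97), Myom3 (0.97), Myo18b (0.97) and Cmya5 (0.97). Within the 12 tumors their r lay between 0.75 (Mypn) and 0.96 (Eef1a2). Eef1a2 had at most 0.0329 CPM in the 6 tumors and 0.799 to 6.39 CPM in the 12. In all, 40 genes had r above 0.9.

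A list of 46 other genes of adult skeletal muscle followed the same tumors. The mean log2 CPM of the 41 tested had rho = 0.99 with that of the 31 genes over the 12 tumors, and 19 of the 46 had the same 6 tumors lowest. Of the 41 tested, 0 were called in any of the 3 comparisons, where 2.31%, 0% and 1.81% of all genes were called in the order above. The median log2 fold changes were -0.14, 0.50 and -0.69 in the same order. Desmin (Des), the intermediate filament of muscle, lay at 3.10 to 10.3 CPM in the 6 tumors and at 8.87 to 43.8 in the 12, and sarcalumenin (Srl) at 4.04 to 5.92 and 4.26 to 9.71.

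Genes of slow fibers and of developing muscle were scarce. The 9 slow fiber genes summed to 2.39 to 4.13 CPM in the 6 tumors and 2.32 to 4.82 in the 12. The mean log2 CPM of the 5 tested varied with that of the muscle genes among the 12 tumors (rho = 0.91). Here and below, rho of a list refers to this mean over its tested genes, not to the sum. Even so, Tnnc1 and Tnnt1, the slow troponin subunits with the highest means, overlapped between the 6 and the 12. Tnnc1 lay at 0.929 to 2.20 against 0.769 to 1.43 CPM. Of 12 genes of precursors and developing muscle, 4 were tested, and the 12 summed to 0.539 to 1.59 CPM in the 6 and 1.25 to 8.42 in the 12 (rho = 0.74). Myh8, the perinatal myosin, had 0 counts in the 6 tumors and 0 to 57 in the 12, and Myl4, a light chain of embryonic muscle, 10 to 33 and 14 to 84. The satellite cell factors Pax7 and Myf5 had 4 counts and 1 count over all 18 tumors. Myf6, the myogenic factor of mature fibers, had 0 counts in the 6 and 1 to 23 in the 12. None of these genes was called between tumor groups, where at most 2.31% of all genes were.

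Markers of the other tissues that lie around a subcutaneous tumor did not follow the muscle genes to the same degree, and their part in the values was not tested. Of the heart muscle markers, Myh6 had 1 count and Myl7 had 2 over the 18 tumors. The list summed to 1.87 to 2.98 CPM in the 6 tumors and 2.46 to 9.72 in the 12, with rho = -0.57 over the 12. The 2 heart genes with the highest means, Tnnt2 and Tnni3, lay at 0.134 to 1.12 and 0.724 to 1.62 CPM in the 6 tumors. In the 12 they lay at 0.200 to 8.67 and 0.533 to 2.06. Of the 11 skin epithelium genes found, 7 had at most 3 counts in every tumor. The 2 tested had rho = -0.42 with the muscle genes over the 12 tumors. Krt5 had 3 counts and Krt14 1 count over all 18 tumors, while Krt10 lay between 1.75 and 3.06 CPM and Col17a1 between 0.533 and 1.21. Adipocyte markers summed to 74.9 to 136 CPM in the 6 tumors and 73.4 to 122 in the 12, with rho = 0.09 over the 12. Their 2 highest, Pnpla2 and Lipe, have enzymes of lipolysis as products and overlapped between the 6 and the 12 (Pnpla2 53.7 to 71.0 against 48.8 to 70.1 CPM). Adipoq, the fat cell hormone, reached 2.28 CPM in the 6 tumors and 0.885 in the 12. Car3, of the same list, went the other way, at 0.0524 to 11.1 CPM (median 3.20) in the 6 and 2.13 to 31.1 (median 11.6) in the 12.

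Smooth muscle genes summed to 126 to 206 CPM in the 6 tumors and 131 to 190 in the 12 (rho = 0.06), endothelial genes to 168 to 296 and 152 to 293 (-0.21), fibroblast genes to 3905 to 6001 and 3562 to 5256 (0.21), nerve sheath genes to 38.4 to 63.0 and 36.5 to 56.2 (-0.18), and leukocyte genes to 376 to 613 and 390 to 691 (-0.03). The level of each of these lists thus overlapped between the 6 and the 12 tumors. Genes of the neuromuscular junction summed to 19.7 to 26.01 and 19.6 to 38.1 (0.30), most of it on Chrnb1, an acetylcholine receptor subunit at 19.4 to 24.4 and 18.1 to 35.6 CPM. Rapsn, which anchors that receptor, lay at 0.140 to 0.724 and 0.533 to 1.53 CPM. Over the 12 lists 1 gene was called between tumor groups, Itgam, 1 of 7 tested in the leukocyte list. This integrin of myeloid cells was higher in the 60% tumors than in both other groups. Of all genes, 2.31% were called in the 60% against control tumors and 1.81% in the 60% against 40% tumors, so 1 call is not a result about these lists.

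Against the cultured control cells the muscle genes could be compared only in part. The filter asks for counts in 4 libraries, and since control tumors 3 and 4 held next to no muscle RNA, 10 of the 32 genes passed it. Of these, 7 were higher in control tumors at an adjusted p under 0.1 (35.3% of all 15047 genes were) and 2 were lower (29.9% of all genes were). Of the 7, Tnni2, Tnnt3, Ryr1, Neb and Pygm passed the filter through the tumors and would not have passed on the control cells alone. Genes let in that way are bound to be higher in tumors, and their test is not given. Tnni2 and Tnnt3 were at 0 in all 4 control cultures. Ryr1 had 3, 1, 3 and 2 counts in the control cells and 146, 288, 13 and 11 in the control tumors, Neb 1, 1, 4 and 2 against 121, 213, 23 and 10, and Pygm 5, 14, 13 and 2 against 132, 124, 28 and 19. Actn3 rose by 2.47 ± 0.87 on the log2 scale (edgeR adjusted p = 0.0349) and Mylpf by 2.20 ± 0.78 (0.0363). Actn3 had 19, 23, 23 and 24 counts in the control cells and 135, 373, 23 and 14 in the control tumors. Mylpf had 14, 11, 41 and 57 against 176, 341, 58 and 22, so both rises rest mainly on control tumors 1 and 2. Cox6a2, a subunit of cytochrome c oxidase in striated muscle, fell by 4.42 ± 1.60 (0.0384). Its counts were 788, 712, 6 and 3 in the control cells and 34, 36, 9 and 1 in the control tumors. The fall of Cox6a2 thus rests on cultures 1 and 2. Eno3 fell by 0.61 ± 0.24 (0.0517). Its counts were 509, 441, 1110 and 895 in the control cells and 495, 534, 629 and 327 in the control tumors. Relative to library totals, cultures 1 and 2 lay within the range of the control tumors, so the fall of Eno3 rests on cultures 3 and 4. Ldb3, a Z-disc protein, was not called (adjusted p = 0.255), its log2 change having an interval of -2.41 to 0.40 (95%). These calls do not describe the 32 genes as a whole.

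For genes at 0 in all 4 control cultures only a lower bound can be given, against 3 counts over the 4 cultures together. On summed counts over summed library totals, control tumors were at least 1197-fold higher for Myh1, 382-fold for Tnnt3, 278-fold for Tnni2, 313-fold for Myh4, 332-fold for Xirp2 and 259-fold for Ckm. Myot had the smallest such bound, 27.4-fold. Except for Tnni2, these sums rest almost wholly on control tumors 1 and 2.

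By the gene models used here, 24 of the 32 genes share exon bases with a gene on the opposite strand, and whether the counting used strand is not given in the sources used here. Reads of Tnnc2 and Ube2c, of Actn3 and Ctsf, of Atp2a1 and Rabep2, or of Tnnt3 and Prr33 can then not be told apart where these overlap. Tnni2, Myl1, Actn2, Myot, Myoz1, Tcap, Pvalb and Pygm share none.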

How the data were processed

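RNA from tumor fragments and cultured cells was extracted and sequenced by a service provider. The authors aligned with STAR to the GRCm39 genome and used featureCounts to count reads in genes. The deposited values are raw counts, whose strand setting is not given in the sources used here. Of 47 columns, 26 were matched to labels (18 tumors, 8 cultures) and 21 were not used. Symbols came from GENCODE M39 (GRCm39), which matched 56017 of 56748 identifiers.

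Counts were filtered (filterByExpr) and TMM-normalized, and tested with edgeR 4.0.16 (R 4.3.3), by a robust quasi-likelihood fit over the 3 tumor groups (16213 genes), or over control tumors and control cells where these were compared (15047 genes). Calls were made at a Benjamini-Hochberg adjusted p under 0.1. Standard errors are the log2 fold change divided by the square root of F. Correlations used log2 CPM with a prior count of 2. limma 3.58.1 and DESeq2 1.42.0 were alternatives. The code was tested on simulated data. Promoter windows are RefSeq's, in GRCm38.p6, and their coordinates differ from those of the genes.

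The muscle genes, the other lists and the tests were chosen with earlier results of these data known. Values per tumor are given for the 2 genes with the highest mean CPM in each role group, the gene of the 32 with the lowest mean, and Myh1, Myh2 and Myh4, and fold changes for these. Also named are the 10 other genes most like the 32 by Pearson r and the 2 with the highest mean CPM in each list. Further genes named were chosen after their values were seen.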

Additional observations from a re-analysis of the deposited data

Results flagged for a closer look

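Within the groups of 4 or 7 tumors, 31 genes and their mean were examined in 3 groups each, 96 in all, for a highest or lowest tumor far from the others by Dixon's ratio. Chance flags about 1 in 20 groups, and 1 was found. Nebulin in 40% tumor 3, at 1.29 CPM, lay far below the other six 40% tumors, its gap to the nearest of them being 0.573 of the whole range on the log2 scale. In the same tumor Acta1, at 16.8 CPM, was also the lowest of its group.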

How the results depend on the processing

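That no muscle gene was called held in the 40% against control and 60% against 40% tumors under every alternative (limma-voom, DESeq2, its size factors, normalization without the muscle genes, no filter or a mean log2 CPM of at least 1, only the 2 groups compared, an adjusted p under 0.05, and each tumor left out). In the 60% against control tumors, 1 gene, Eno3, was called with DESeq2 (1056 of all genes were), 1 with only the 2 groups compared and 1 without control tumor 4, and leaving out 1 tumor gave 0 to 1. For control tumors against cells, 9 of 10 tested were called, 16 of 32 without a filter, 14 of 16 with a mean log2 CPM of at least 1, which lets in genes high in control tumors 1 and 2 alone, and 7 to 11 with 1 library left out. In the main fit 35.3% of all genes were called higher in tumors and 29.9% lower. The 9 include Tnni2, Tnnt3, Ryr1, Neb and Pygm, which passed the filter through the tumors, and no conclusion is drawn from these counts.

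In the 60% against control tumors the sign of each gene given in full but Eno3 turned when 1 tumor or another was left out, and each ran from its lowest to its highest log2 fold change as follows. Myh1 ran from -3.43 to 0.76, Myh2 from -3.77 to 1.32, Myh4 from -0.32 to 1.93, Acta1 from -1.31 to 0.69, Tnnt3 from -0.73 to 0.64, Xirp2 from -2.45 to 0.98, Actn3 from -1.32 to 0.42, Atp2a1 from -0.66 to 0.46, Ryr1 from -1.37 to 0.48 and Ckm from -0.67 to 0.57. Eno3 in the 40% against control tumors ran from -0.16 to 0.010. Most of the lowest values came without 60% tumor 7 and the highest without control tumor 1 or 2. With limma-voom, Myh4 turned to -0.063, Tnnt3 to 0.043 and Xirp2 to -0.77, and the cause was not tested. The median log2 fold change of the 31 genes ran from -0.87 to 0.66, from 0.38 to 1.52 and from -1.80 to -0.64 in the 3 comparisons with 1 tumor left out, and limma-voom gave -0.34, 2.32 and -2.65.

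The replicate numbers did not pair the tumors, since the mean correlation of same-numbered tumors was -0.16, -0.0058 and -0.026 in the 3 comparisons and 0, 0 and 1 tumors were most like their own number. With the number as a replicate block 0 genes were called in each tumor comparison and 7 against the cells, and in the 60% against control tumors Myh4 turned to -0.62 and Xirp2 to -1.29. The mean shares moved by less than 1 SD under every alternative run, an SD about as large as the mean in control and 60% tumors. Leaving out 1 tumor, the mean ran from 0.0120% (without control tumor 2) to 0.0251% in the control tumors, from 0.0282% to 0.0367% in the 40% tumors and from 0.00921% (without 60% tumor 7) to 0.0193% in the 60% tumors. The share on the 26 genes and the correlation within the 12 tumors were added after seeing the data. The median correlation over 18 tumors ran from 0.89 to 0.91 with 1 tumor left out. Counting intervals of the shares were narrow beside the spread between tumors.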
